A study of Homo sapiens with 3 samples.

Results

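The genes described here encode proteins that make ribosomes: 40 genes of ribosome biogenesis and RNA polymerase I transcription, taken by name from a list of gene symbols. The list sets no threshold on values, but it was drawn up with earlier results of these data known. All 40 listed symbols were found among the 19225 genes of the deposited table, and all 40 had a mean RPKM of at least 1, the level at which 10153 genes were tested. RPKM is a read count scaled by the length of the transcript and by the library total. Each gene was represented by the transcript with the most reads over the libraries.

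The RNA came from 5637 cells, an established human bladder cancer line labelled wild type, in 3 libraries of total RNA depleted of ribosomal RNA. The siCDCA3 group had 2 libraries, siCDCA3-2 and siCDCA3-1, from cells transfected with siRNA against CDCA3, a gene whose product takes part in entry into mitosis. The siNC group had 1 library, from cells transfected with a control siRNA. The labels give no time after transfection and do not say whether the siCDCA3 libraries differ in siRNA sequence or are repeated cultures, and nothing in them names separate cultures, so any p-value measures only the spread between these libraries, which may be technical.

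Ribosome assembly begins in the nucleolus, where RNA polymerase I transcribes a long precursor of the ribosomal RNAs. Small nucleolar ribonucleoproteins (snoRNPs) guide methylation and pseudouridylation of that precursor, and further factors fold, cut and export the pre-60S and pre-40S particles that become the large and small subunits. In many cell types MYC raises the transcription of these genes, and growing cells need more of their products.

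Promoters were searched for the letters CACGTG, the E-box that MYC and related factors can bind. As an example of the regulatory sequence in front of these genes, 3 promoters are printed. They belong to the members with the largest siCDCA3-2 minus siCDCA3-1 differences among those with a matched promoter holding CACGTG. Each runs 5′ to 3′ from 250 bases before to 50 bases after the gene start (RefSeq, GRCh38.p14) and lies on the plus strand at chr2:28894417-28894716 (WDR43), the plus strand at chr1:19251555-19251854 (MRTO4) and the minus strand at chr3:51941855-51942154 (RRP9). Capitals mark CACGTG, which begins 3 bases after the start in WDR43, 14 bases after it in MRTO4 and 5 bases before it in RRP9.
WDR43: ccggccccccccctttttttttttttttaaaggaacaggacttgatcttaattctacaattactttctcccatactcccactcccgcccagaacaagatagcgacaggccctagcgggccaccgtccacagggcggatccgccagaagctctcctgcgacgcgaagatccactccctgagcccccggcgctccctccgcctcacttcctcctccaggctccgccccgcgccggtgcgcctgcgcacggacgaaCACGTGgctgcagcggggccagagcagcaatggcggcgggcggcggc
MRTO4: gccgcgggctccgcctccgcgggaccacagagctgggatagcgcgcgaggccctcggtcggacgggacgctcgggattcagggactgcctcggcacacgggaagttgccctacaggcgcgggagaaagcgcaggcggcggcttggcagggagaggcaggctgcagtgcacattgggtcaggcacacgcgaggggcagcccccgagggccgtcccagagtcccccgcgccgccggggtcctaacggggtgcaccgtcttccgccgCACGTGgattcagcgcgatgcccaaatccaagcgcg
RRP9: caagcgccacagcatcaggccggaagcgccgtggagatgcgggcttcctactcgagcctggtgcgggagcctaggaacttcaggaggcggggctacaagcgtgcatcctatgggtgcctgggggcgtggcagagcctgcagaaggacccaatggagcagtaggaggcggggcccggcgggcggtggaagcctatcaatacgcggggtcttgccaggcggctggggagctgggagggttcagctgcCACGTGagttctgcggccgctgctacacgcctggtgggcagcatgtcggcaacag
Promoters were matched by symbol for 35 of the 40 members. BOP1 (1.43) and NOLC1 (1.27), whose differences exceeded that of RRP9 (1.26), had no matched promoter and were not searched. CACGTG, which reads the same on both strands, stood in 12 of these 35 windows (34.3%), against 10.7% of the windows of 8073 tested genes and 7.43% of all 27305 windows. CCGGAAG, an ETS-type motif searched on both strands, stood in 13 of the 35 (37.1%), against 20.9% of tested genes and 10.7% of all windows. CACGTG also stood in the windows of members with small siCDCA3-2 minus siCDCA3-1 differences, NOP10 (0.04), FBL (0.27), NOP2 (0.48) and NAT10 (0.50). The windows of DDX21 (2.00), DKC1 (1.33), LYAR (1.29) and NIP7 (1.27), which had large differences, held no CACGTG. A match describes letters in a window and does not show that a factor binds there.

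The libraries held 62389922 (siCDCA3-2), 40420563 (siCDCA3-1) and 50912733 (siNC) gene-level counts. CDCA3 itself had an RPKM of 1.40 in siCDCA3-2 and 0.574 in siCDCA3-1, against 5.52 in siNC, so the targeted gene was lower in both libraries labelled siCDCA3. MYBL2, named in the title of the series, had 75.95 and 51.6 RPKM in them, against 76.6 in siNC. Of 9 bladder epithelial markers, KRT5, KRT17, KRT8 and KRT18 each exceeded 130 RPKM in every library, and only KRT14 lay under 2. Of the 9, 5 were lower than siNC in both siCDCA3 libraries. KRT5 was at 47.5% of siNC in siCDCA3-2 and 51.8% in siCDCA3-1, and KRT17 was at 32.1% and 48.95%. EPCAM ran in the order of most members, with 45.4 RPKM in siCDCA3-2 and 17.4 in siCDCA3-1, against 27.0 in siNC. The part of these marker levels in the members' differences was not tested. The leukocyte markers were all under 1 RPKM, and of 8 fibroblast and endothelial markers only COL1A1 exceeded 1 (2.26, 8.33 and 6.96 RPKM in siCDCA3-2, siCDCA3-1 and siNC).

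The members did not move as one with the treatment label. All 40 were higher in siCDCA3-2 than in siNC, whereas 30 of the 40 were lower in siCDCA3-1 than in siNC. Among all 10153 genes tested, 54.4% were higher in siCDCA3-2 and 58.6% were lower in siCDCA3-1. The median difference in log2(RPKM + 1), a scale that understates the change of low genes, was 0.70 in siCDCA3-2 and -0.18 in siCDCA3-1, where the medians of all genes tested were 0.05 and -0.07. The pattern of lower in siCDCA3-1 with higher in siCDCA3-2 was met by 30 members and by 30.8% of all genes tested. The other 10 members were higher in both siCDCA3 libraries, an order met by 23.6% of all genes, and no member was lower in both, where 27.8% of all genes were. Both comparisons use the same siNC library and are not independent.

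The median RPKM of the members was 15.8 in siCDCA3-2 and 7.95 in siCDCA3-1, against 10.0 in siNC. Their levels spanned 3.80 to 371 RPKM in siCDCA3-2, 1.74 to 184 in siCDCA3-1 and 1.23 to 228.5 in siNC. Exact 95% binomial intervals on the ratio of counts, which cover counting error only, lay above 100% of the siNC level for all 40 members in siCDCA3-2. In siCDCA3-1 they lay below 100% for 27 members, above it for 7 and across it for 6 (NOP10, GAR1, GNL3, PPAN, TSR1 and HEATR1). The share of all genes tested with such intervals was not computed. High counts make these intervals narrow, so the numbers describe the members only and do not set them apart from other genes. In bulk RNA, fewer cells of a type and less RNA per cell cannot be told apart.

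**Figure D1:**
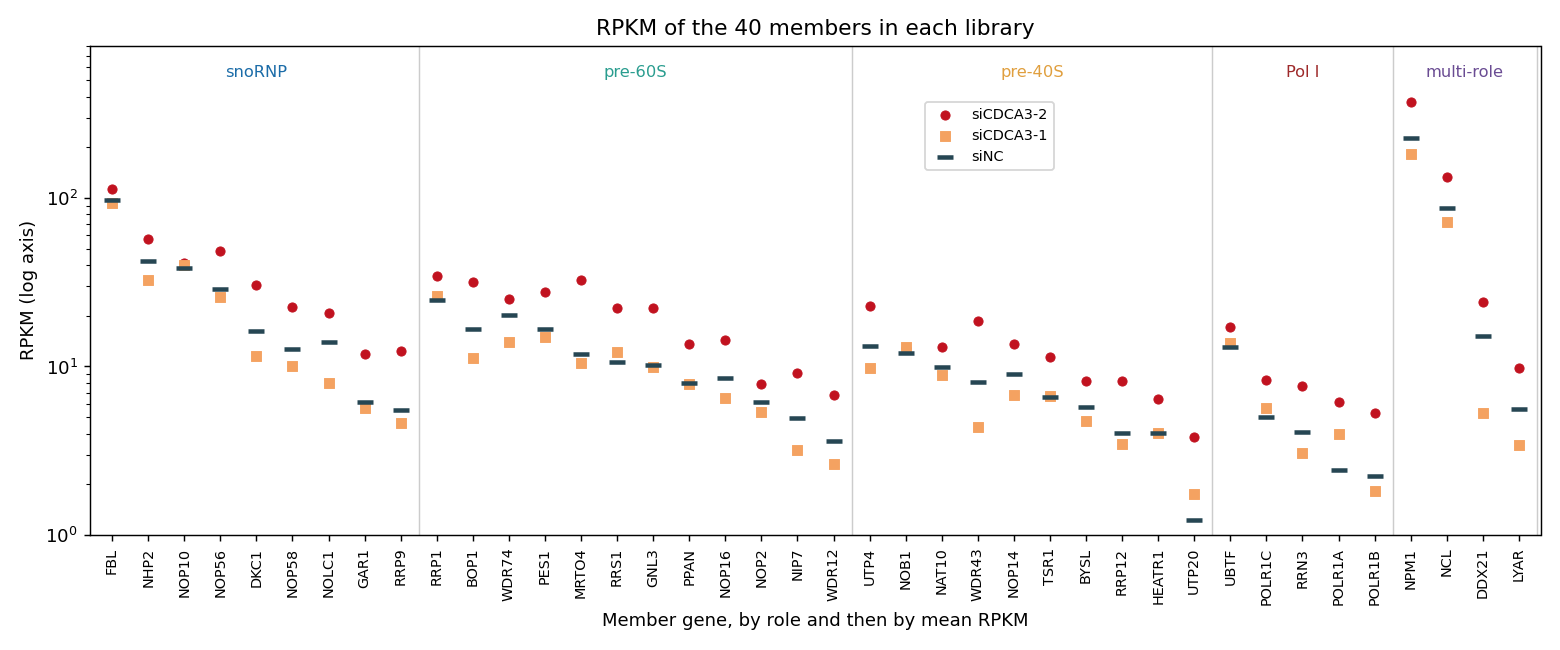
RPKM (log axis) of the 40 members in siCDCA3-2 (circles), siCDCA3-1 (squares) and siNC (bars), 1 library each, ordered by role and mean RPKM. The siCDCA3-2 value lies above the siNC value for all 40 members, and the siCDCA3-1 value lies below it for 30. For NOB1 the circle (12.8) is hidden behind the square (13.1).

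The test of siCDCA3 against siNC, which asks what differs once CDCA3 is depleted, called none of the members. In edgeR's quasi-likelihood fit, with p-values adjusted by Benjamini-Hochberg over 10153 genes, each member had an adjusted p of 0.9997, and 0.0295% of all genes tested were called. CDCA3, the targeted gene, was not called either (log2 fold change -2.50, edgeR unadjusted p = 0.00246, adjusted p = 0.9997). No member had an unadjusted p under 0.05, against 1.32% of all genes; DESeq2 also called none and gave POLR1A alone an unadjusted p under 0.05, and limma gave none. The fitted log2 fold changes of the members ran from -0.07 for DDX21 to 1.16 for UTP20, with a median of 0.34. The fit pools siCDCA3-2 with siCDCA3-1, which lay on opposite sides of siNC for most members, and takes the lone siNC library to vary as they do, so a high p does not show that a member was unchanged.

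The snoRNP members, 9 genes, had a median difference from siNC of 0.72 in siCDCA3-2 and -0.23 in siCDCA3-1. FBL, fibrillarin, the methyltransferase of box C/D snoRNPs, had 113.5 RPKM in siCDCA3-2 and 93.7 in siCDCA3-1, against 97.0 in siNC. NOP56, a core box C/D protein, had 48.5 and 25.7 RPKM in those libraries, against 28.97 in siNC. NOP56 thus stood at 167% of its siNC level in siCDCA3-2 (163% to 172%) and at 88.7% in siCDCA3-1 (85.7% to 91.9%), while FBL stood nearer to it, at 117% and 96.6%.

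Within the H/ACA snoRNPs, which carry out pseudouridylation, the core proteins DKC1, NHP2 and NOP10 were unequally spread over the libraries. DKC1, dyskerin, the pseudouridine synthase, had 30.6 RPKM in siCDCA3-2 and 11.6 in siCDCA3-1, against 16.2 in siNC, the largest siCDCA3-2 minus siCDCA3-1 difference of the snoRNP members in log2(RPKM + 1). NHP2, another core protein, had 56.8 and 32.5 RPKM, against 42.6 in siNC. NOP10, the smallest core protein, had 41.4 and 40.3 RPKM, against 38.5 in siNC. The siCDCA3-2 to siCDCA3-1 ratio was therefore 264% for DKC1 (255% to 274%) and 175% for NHP2 (167% to 182%), and for NOP10 it was 103%, with an interval (97.4% to 108%) that held 100%.

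The remaining snoRNP members were GAR1, NOP58, RRP9 and NOLC1, which lay between 11.9 and 22.6 RPKM in siCDCA3-2 and between 4.59 and 10.1 in siCDCA3-1, against 5.55 to 14.0 in siNC. GAR1, also an H/ACA protein, had a siCDCA3-2 to siCDCA3-1 ratio of 209.5% (193% to 228%). RRP9, a protein of the U3 snoRNP, was at 222.5% of siNC in siCDCA3-2. NOLC1, a nucleolar phosphoprotein that binds snoRNPs, was at 57.3% of siNC in siCDCA3-1 (55.0% to 59.7%). All 4 were lower in siCDCA3-1 and higher in siCDCA3-2 than siNC.

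The 12 pre-60S members had a median difference from siNC of 0.73 in siCDCA3-2 and -0.17 in siCDCA3-1. MRTO4, which helps to place the stalk on the large subunit, had 32.5 RPKM in siCDCA3-2 and 10.5 in siCDCA3-1, against 11.8 in siNC. It was the farthest member above siNC in siCDCA3-2 on the log2(RPKM + 1) scale (1.39), at 275% of the siNC level (265% to 286%), and was 89.2% of it in siCDCA3-1. In the fit of both siCDCA3 libraries its log2 fold change was 0.84 (standard error 0.61, edgeR adjusted p = 0.9997).

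BOP1, PES1 and WDR12 form the PeBoW complex, which is needed to process the precursor of the large subunit RNAs, and all 3 were lower in siCDCA3-1 and higher in siCDCA3-2 than siNC. BOP1 had 31.8 RPKM in siCDCA3-2 and 11.2 in siCDCA3-1, against 16.8 in siNC. PES1 had 27.6 and 14.9 RPKM, against 16.75 in siNC. WDR12 had 6.81 and 2.62 RPKM, against 3.62 in siNC. The partners differed in how far siCDCA3-2 exceeded siCDCA3-1, by a ratio of 285% for BOP1 (272% to 298%) and 260% for WDR12, and of 185% for PES1 (178% to 192%).

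RRP1 and RRS1 were the pre-60S members higher than siNC in both siCDCA3 libraries. RRP1, a nucleolar protein of large subunit maturation, had 34.5 RPKM in siCDCA3-2 and 26.3 in siCDCA3-1, against 24.9 in siNC. RRS1, which in yeast helps to add the 5S particle to the large subunit, had 22.15 and 12.15 RPKM, against 10.7 in siNC. WDR74, a WD-repeat protein of large subunit maturation, went the other way in siCDCA3-1, with 25.3 RPKM in siCDCA3-2 and 14.0 in siCDCA3-1, against 20.3 in siNC. The other pre-60S members, NOP2, NOP16, GNL3, NIP7 and PPAN, had 7.90 to 22.4 RPKM in siCDCA3-2 and 3.20 to 9.99 in siCDCA3-1, against 4.95 to 10.2 in siNC. Among them GNL3, nucleostemin, was 220% of siNC in siCDCA3-2 and 98.0% in siCDCA3-1, where its interval (92.7% to 104%) held 100%.

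**Figure D2:**
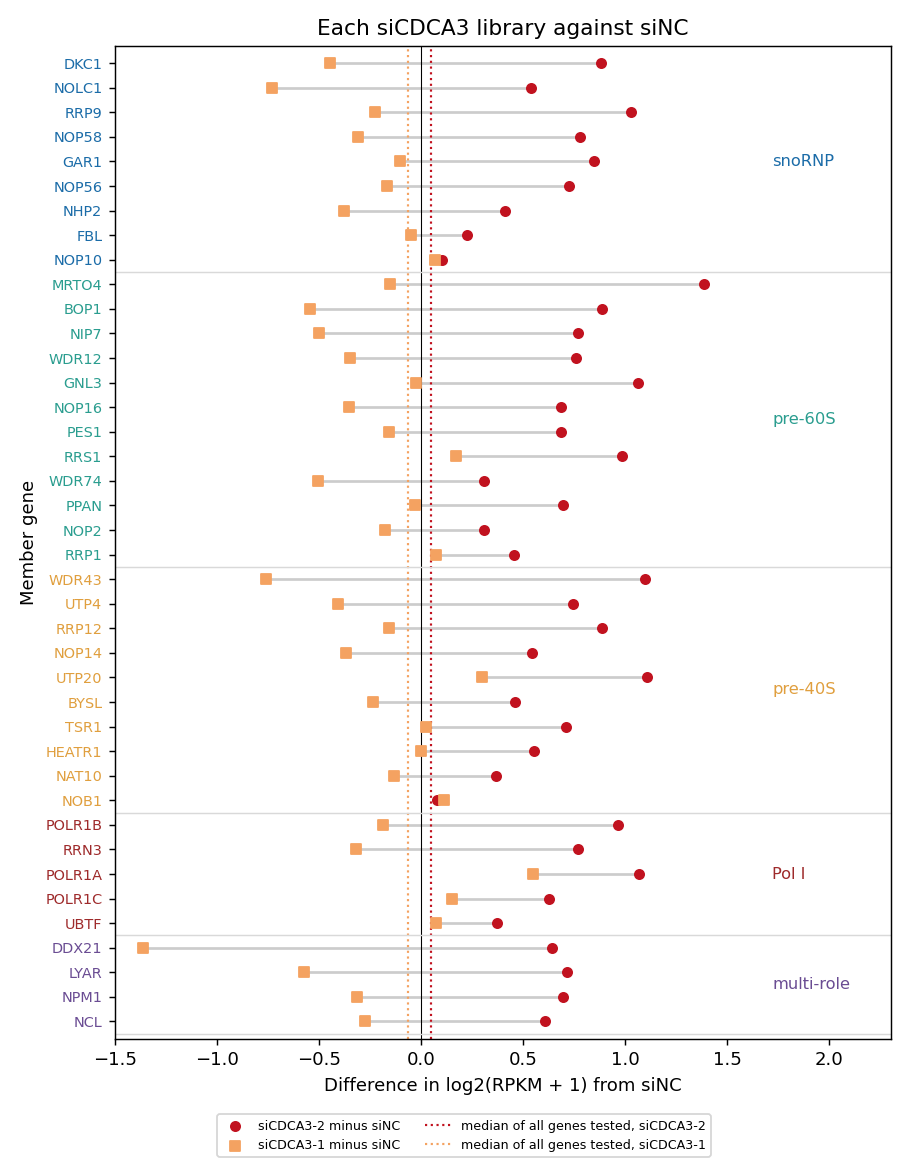
Difference in log2(RPKM + 1) from siNC for each member in siCDCA3-2 (circles) and siCDCA3-1 (squares), grouped by role, with dotted lines at the medians of all 10153 genes tested (0.05 and -0.07). The circles lie from 0.08 to 1.39, and the squares lie from -1.36 to 0.55, on both sides of 0.

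The 10 pre-40S members, which include parts of the small subunit processome, had a median difference of 0.63 in siCDCA3-2 and -0.15 in siCDCA3-1. WDR43, UTP4 and HEATR1 belong to the first subcomplex to join the precursor RNA. WDR43 had 18.55 RPKM in siCDCA3-2 and 4.40 in siCDCA3-1, against 8.13 in siNC. UTP4 had 22.9 and 9.80 RPKM, against 13.3 in siNC. HEATR1 had 6.40 and 4.04 RPKM, against 4.04 in siNC. The 3 partners were all higher in siCDCA3-2, but in siCDCA3-1 WDR43 stood at 54.1% of siNC (51.0% to 57.3%), UTP4 at 73.7% (69.9% to 77.6%) and HEATR1 at 100.1% (95.7% to 105%).

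UTP20, a large scaffold protein of small subunit assembly, had 3.80 RPKM in siCDCA3-2 and 1.74 in siCDCA3-1, against 1.23 in siNC. At 309% of siNC (292% to 328%) it had the largest ratio of the members in siCDCA3-2, and it was also above siNC in siCDCA3-1 (141%). The fit gave it a log2 fold change of 1.16 (standard error 0.58, edgeR unadjusted p = 0.0673, adjusted p = 0.9997). TSR1, a late pre-40S factor, had 11.4 and 6.69 RPKM, against 6.565 in siNC, so only siCDCA3-2 stood apart.

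NOB1, the endonuclease that makes the final cut of the small subunit RNA, was the member nearest to its siNC level in siCDCA3-2. NOB1 had 12.8 RPKM in siCDCA3-2 and 13.1 in siCDCA3-1, against 12.1 in siNC, and it was the only member lower in siCDCA3-2 than in siCDCA3-1. That difference lay within counting error (97.7%, with an interval of 92.8% to 103%). NAT10, which acetylates the small subunit RNA, had 13.05 and 8.92 RPKM, against 9.89 in siNC. NOP14, RRP12 and BYSL, the other members, had 8.24 to 13.7 RPKM in siCDCA3-2 and 3.49 to 6.81 in siCDCA3-1, against 4.001 to 9.08 in siNC.

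The polymerase I members were the subgroup with the highest values in siCDCA3-1 relative to siNC: their median difference was 0.07 there and 0.77 in siCDCA3-2, and 3 of the 5 were higher in both libraries. POLR1A, the largest subunit of the enzyme, had 6.17 RPKM in siCDCA3-2 and 3.99 in siCDCA3-1, against 2.42 in siNC. It stood at 255% of siNC in siCDCA3-2 (244.5% to 267%) and at 165% in siCDCA3-1 (157% to 174%), the highest siCDCA3-1 ratio of the members. The fit gave POLR1A a log2 fold change of 1.07 (standard error 0.52, edgeR unadjusted p = 0.0587, adjusted p = 0.9997).

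POLR1B, which with POLR1A forms the active centre, had 5.31 RPKM in siCDCA3-2 and 1.83 in siCDCA3-1, against 2.23 in siNC. Thus POLR1B was lower than siNC in the library where POLR1A was higher (82.25%, with an interval of 76.0% to 89.0%). POLR1C, a subunit shared with RNA polymerase III, had 8.295 and 5.70 RPKM, against 5.03 in siNC. UBTF, which binds and opens the ribosomal gene promoter, had 17.2 and 13.8 RPKM, against 13.1 in siNC. RRN3, the growth-regulated factor that brings the polymerase to the promoter, had 7.64 and 3.07 RPKM, against 4.08 in siNC, and so followed POLR1B rather than POLR1A in its order across the libraries.

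NPM1, NCL, DDX21 and LYAR are nucleolar proteins with several roles, and all 4 were lower in siCDCA3-1 and higher in siCDCA3-2 than siNC, with medians of 0.67 in siCDCA3-2 and -0.44 in siCDCA3-1. NPM1, nucleophosmin, a chaperone of ribosome assembly, had 371 RPKM in siCDCA3-2 and 184 in siCDCA3-1, against 228.5 in siNC. NCL, nucleolin, had 133 and 71.8 RPKM, against 87.0 in siNC. These abundant transcripts, with counts of 20326 to 86293 in a library, stood at 162% (NPM1) and 153% (NCL) of siNC in siCDCA3-2 and at 80.4% and 82.5% in siCDCA3-1. For NPM1 the fit gave a log2 fold change of 0.27 (standard error 0.57, edgeR adjusted p = 0.9997).

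DDX21, an RNA helicase that acts on the precursor RNA and at polymerase I and II genes, had the lowest siCDCA3-1 value of the members relative to siNC. It had 24.2 RPKM in siCDCA3-2 and 5.29 in siCDCA3-1, against 15.2 in siNC. That was 159.5% of siNC in siCDCA3-2 (156% to 164%) and 34.9% in siCDCA3-1 (33.4% to 36.5%), from counts of 18302 and 2596, against 9317. DDX21 was the one member with a log2 difference of -1 or less in siCDCA3-1, where 1.74% of all genes tested had one. LYAR, a nucleolar zinc finger protein, had 9.81 and 3.43 RPKM, against 5.58 in siNC.

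The contrast between the siCDCA3 libraries does not involve siNC. Of the 40 members, 39 were higher in siCDCA3-2 than in siCDCA3-1, as were 57.8% of all genes tested, and NOB1 was the exception. The median difference of the members was 0.90, and that of all genes tested was 0.10. A difference of at least 1 was found for 18 members and for 4.90% of all genes tested. With 1 library on each side there is no test of these differences. The counting interval of the ratio lay above 100% for 38 members and held 100% for NOP10 and NOB1. The share of all genes tested with such an interval was not computed.

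By role, the median siCDCA3-2 minus siCDCA3-1 difference was 1.15 for the multi-role proteins, 0.95 for snoRNP members, 0.94 for pre-60S, 0.75 for pre-40S and 0.52 for polymerase I members. The subgroups overlapped, since single members ran from 0.04 (NOP10) to 1.33 (DKC1) within the snoRNPs and from -0.03 (NOB1) to 1.86 (WDR43) within the pre-40S members. DDX21 had the largest difference (2.00), at 457% of its siCDCA3-1 level (439% to 476.5%). In siCDCA3-2 against siNC a difference of at least 1 was found for 6 members, RRP9, MRTO4, GNL3, WDR43, UTP20 and POLR1A, and for 1.42% of all genes tested.

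**Figure D3:**
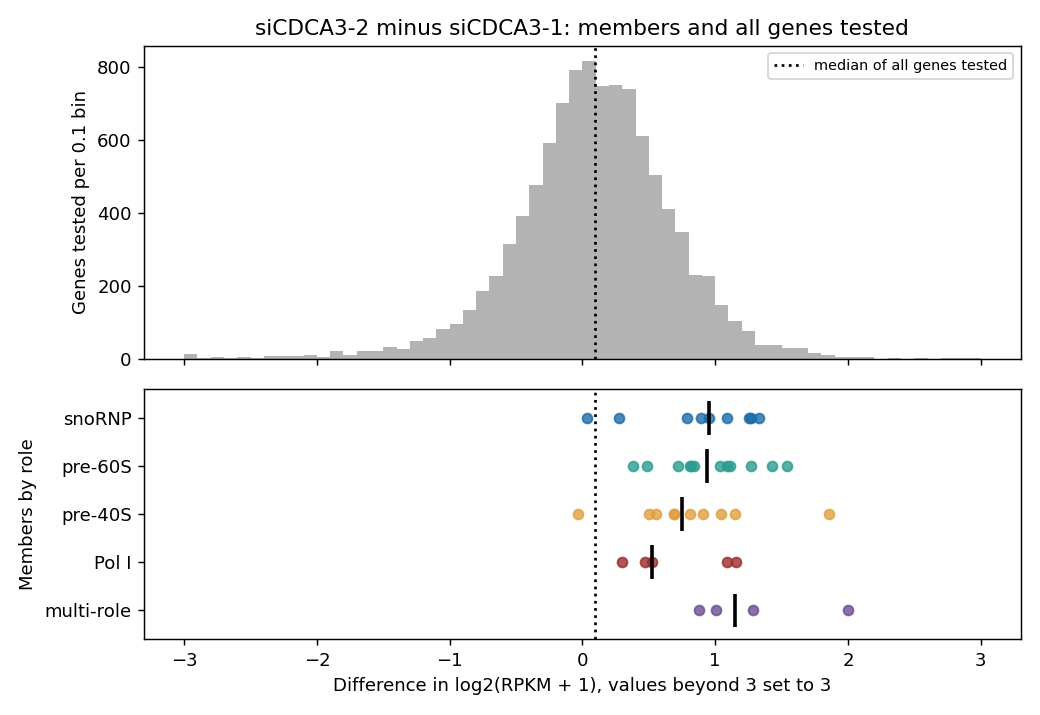
Upper panel: number of tested genes per 0.1 bin of the siCDCA3-2 minus siCDCA3-1 difference in log2(RPKM + 1), with the median of all genes (0.10) dotted. Lower panel: the same difference for each member by role, with black bars at the subgroup medians, which lie from 0.52 to 1.15.

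With TMM factors, which assume that most genes do not differ, the median siCDCA3-2 minus siCDCA3-1 difference of all genes tested moved to -0.02, against 0.10 on RPKM as deposited, and that of the members to 0.77. FBL, GNL3 and PPAN then lay slightly above siNC in siCDCA3-1, which left 27 members lower there, where 50.1% of all genes tested were lower. With these factors 11 members, and 3.25% of all genes tested, were at least 1 higher in siCDCA3-2 than in siCDCA3-1. All 40 members stayed above siNC in siCDCA3-2, where 49.8% of all genes tested were higher. NOP10 lay slightly lower in siCDCA3-2 than in siCDCA3-1.

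Sequence shared with other genes bears on how certain these counts are. In the GENCODE v29 annotation, 19 members had an exon that overlaps an exon of another gene, among them MRTO4, UTP4, POLR1C and HEATR1, and the sources used here do not state whether strand was used in counting. The same annotation names pseudogenes after 8 members, 45 of them after NPM1, so the NPM1 level is uncertain. The 16 members with neither, DDX21, WDR43, DKC1 and POLR1A among them, were all higher in siCDCA3-2 than in siNC, and 12 of the 16 were lower in siCDCA3-1. The 19 members with an overlap were also all higher in siCDCA3-2, and 13 of the 19 were lower in siCDCA3-1. All 8 members with pseudogenes were higher in siCDCA3-2 and lower in siCDCA3-1. Among all genes tested, 54.4% were higher in siCDCA3-2 and 58.6% were lower in siCDCA3-1. Where a member had several measured transcripts (22 members), the siCDCA3-2 minus siCDCA3-1 difference varied between them by 0.02 at the median and by 0.28 at most, in NOP16, although transcripts of a gene share reads.

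Transcript composition moved with the library as well. Across the 8805 tested genes with a matched GENCODE sequence, the siCDCA3-2 minus siCDCA3-1 difference had a Pearson correlation of -0.35 with GC content, the siCDCA3-2 minus siNC difference had one of -0.33, and the siCDCA3-1 minus siNC difference had one of 0.09. These are descriptions across genes of the same libraries. Across all 10153 genes the correlation with log2 transcript length was -0.03 for siCDCA3-2 minus siCDCA3-1, 0.10 for siCDCA3-2 minus siNC and 0.18 for siCDCA3-1 minus siNC. The 34 members with a sequence had a median GC content of 51.1%, against 50.4% over all tested genes with one. The median transcript length was 2278 bases for all 40 members, against 3090 bases for all genes tested. By role it ran from 1582 bases for the snoRNP members to 4800 bases for the polymerase I members. The part of composition in the members' differences was not tested further.

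Other genes of the same pathway, from lists of factors that hold none of the 40, had a smaller median than the members in siCDCA3-2 and one slightly farther below 0 in siCDCA3-1. Of 138 such genes in the table, 123 were higher in siCDCA3-2 than in siNC, 111 were lower in siCDCA3-1, and 134 were higher in siCDCA3-2 than in siCDCA3-1. Their medians were 0.41 in siCDCA3-2 and -0.22 in siCDCA3-1, where those of the members were 0.70 and -0.18. Of the 137 that could be tested, edgeR called none and gave none an unadjusted p under 0.05. The medians in siCDCA3-2 were 0.55 for 48 other pre-40S genes, 0.38 for 45 other pre-60S genes, 0.34 for 17 exosome genes and cofactors, 0.29 for 16 other polymerase I genes and 0.23 for 12 snoRNP assembly genes. In siCDCA3-1 the medians of the same lists were -0.21, -0.18, -0.28, -0.22 and -0.26. The other polymerase I genes thus lay below siNC there at the median, whereas the 5 polymerase I members had a median of 0.07. Both lists include genes shared with other polymerases, such as POLR1C among the members and POLR2E, POLR2F, POLR2H, POLR2K, POLR2L and TBP among the others.

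Among these, NIFK, a nucleolar partner of Ki-67, had 19.0 RPKM in siCDCA3-2 and 4.82 in siCDCA3-1, against 9.33 in siNC. EBNA1BP2, a pre-60S factor, had 51.7 and 15.8 RPKM, against 23.5 in siNC. NOP53, a pre-60S factor that the table lists as GLTSCR2, ran in the opposite order, with 54.2 and 117 RPKM, against 104 in siNC. NOP53 was the one other pre-60S gene lower in siCDCA3-2 than in siCDCA3-1. In the small subunit processome UTP18 had 29.2 and 11.7 RPKM, against 17.4 in siNC, WDR3 had 8.40 and 2.99, against 3.83, and TBL3 had 11.25 and 9.65, against 9.82.

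The assembly of H/ACA particles uses NAF1, which had 4.32 RPKM in siCDCA3-2 and 1.505 in siCDCA3-1, against 2.496 in siNC, and SHQ1, which had 2.15 and 1.87, against 1.57. RUVBL1, an ATPase of the complex that assembles box C/D particles, had 33.6 and 16.4 RPKM, against 21.3 in siNC. Of the polymerase I genes outside the 40, POLR1G had 10.0 and 4.21 RPKM, against 5.94 in siNC, and POLR1H, with the lowest such difference of its list, had 6.84 and 7.895, against 8.835. TAF1D, a subunit of the promoter selectivity factor, had 17.3 and 7.655 RPKM, against 11.3 in siNC. The exosome trims ribosomal RNA, and its subunit EXOSC3 had 15.6 and 7.765 RPKM, against 10.15 in siNC. MPHOSPH6, an exosome cofactor, had 11.98 and 3.82 RPKM, against 7.06 in siNC. XRN2, an exonuclease of the precursor, had 27.4 and 26.8 RPKM, against 21.03 in siNC, and so was higher in both.

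**Figure D4:**
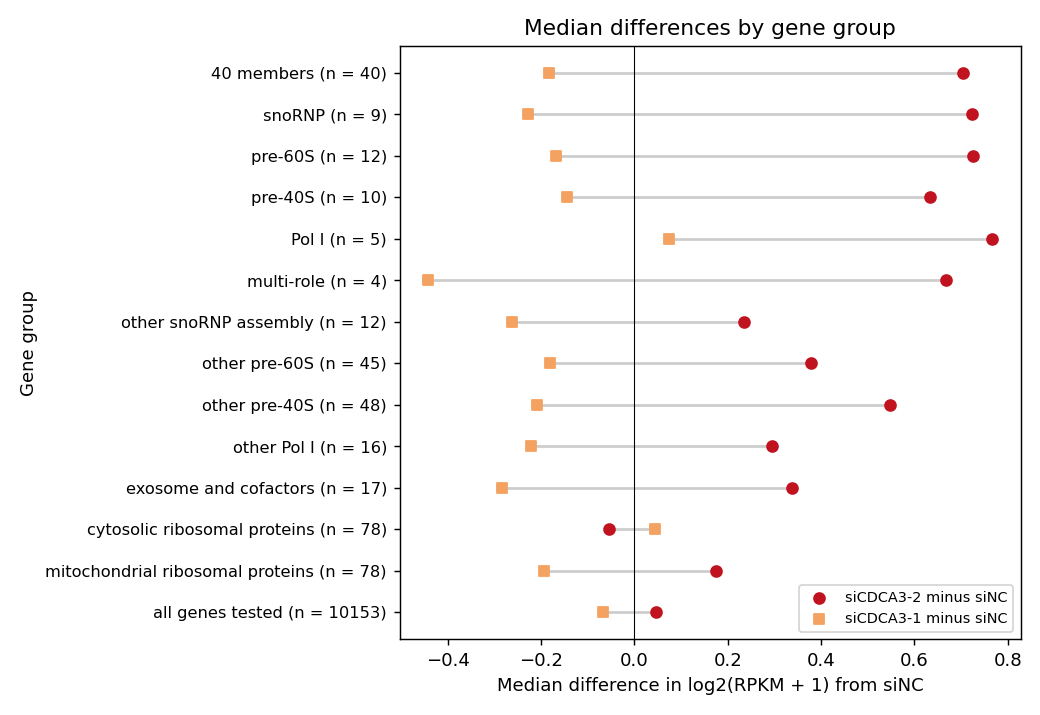
Median difference in log2(RPKM + 1) from siNC in siCDCA3-2 (circles) and siCDCA3-1 (squares) for the members, their subgroups, other genes of the pathway, ribosomal protein genes and all genes tested, with the number of genes in brackets. The members' medians (0.70 and -0.18) lie farther apart than those of all genes tested (0.05 and -0.07), and those of cytosolic ribosomal protein genes (-0.06 and 0.04) lie close to 0.

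Ribosomal protein genes were grouped by symbol after their values were seen. For 78 cytosolic ribosomal protein genes the median difference from siNC was -0.06 in siCDCA3-2 and 0.04 in siCDCA3-1, and 18 of the 78 were higher in siCDCA3-2 than in siCDCA3-1, against 39 of the 40 members. With quantile normalization their siCDCA3-2 median was 0.08. RPL5 and RPL11, proteins of the 5S particle that were also named after their values were seen, had 374 and 386 RPKM in siCDCA3-2 and 364 and 386 RPKM in siCDCA3-1, against 356 and 384 RPKM in siNC. For 78 mitochondrial ribosomal protein genes the medians were 0.18 in siCDCA3-2 and -0.19 in siCDCA3-1, and 71 of the 78 were higher in siCDCA3-2 than in siCDCA3-1, with a median difference of 0.38. The mitochondrial list thus ran in the order of the members, and the cytosolic list did not. The difference between these lists and the members was not tested.

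Of 18 regulators of growth and of these genes, 17 could be tested and edgeR called none and gave none an unadjusted p under 0.05. Their medians were 0.04 in siCDCA3-2 and -0.02 in siCDCA3-1. MYC ordered the libraries as most members did, with 54.9 RPKM in siCDCA3-2 and 17.3 in siCDCA3-1, against 27.5 in siNC. MYC stood at 199.6% of siNC in siCDCA3-2 (195% to 205%) and at 62.9% in siCDCA3-1 (60.6% to 65.3%), with a fitted log2 fold change of 0.37 (edgeR adjusted p = 0.9997). MAX, one of the listed regulators, did not follow MYC. It had 6.29 RPKM in siCDCA3-2 and 7.94 in siCDCA3-1, against 8.62 in siNC, and so was lower in both. MXD1 and MXD4 encode partners of MAX that oppose MYC. MXD1 had 1.52 RPKM in siCDCA3-2 and 0.969 in siCDCA3-1, against 1.36 in siNC. MXD4 had 1.35 and 4.43 RPKM, against 1.81 in siNC, the reverse order of the siCDCA3 libraries. MNT and MXI1, which also oppose MYC and were named after their values were seen, had 1.46 and 1.10 RPKM in siCDCA3-2 and 2.665 and 2.16 RPKM in siCDCA3-1, against 2.75 and 2.27 RPKM in siNC. Thus 3 of these 4 genes that oppose MYC were lower in siCDCA3-2 than in siCDCA3-1, as were 4281 of all 10153 genes tested. Because MNT and MXI1 were added with their values known, this count is a description only. The part of any of these in the members' differences was not tested.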

How the data were processed

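RNA-seq data from 3 libraries of 5637 cells were analysed. Per the submitters' processing notes, reads were handled with Trimmomatic 0.36, FastQC, HISAT2 and HTSeq, with human (hg38) and mouse (mm10) builds listed without a role. Of the table's accessions, 98.6% matched human RefSeq. The deposited table gives, per the file headers, whole-number counts per RefSeq transcript and RPKM values; each deposited RPKM equals the count scaled by the listed length and by a single library total. Strand handling is not stated in the sources used here. Every row is labelled mRNA, so snoRNAs were not analysed here.

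For each of 19225 genes the transcript with the most reads over the libraries was used, because transcripts of a gene share reads. Symbols that a spreadsheet had turned into dates (103 rows) were restored by accession in 102. Library totals behind RPKM were recovered as 160640877 (siCDCA3-2), 104153360 (siCDCA3-1) and 130459616 (siNC). edgeR 4.0.16 in R 4.3.3 (TMM scaling, quasi-likelihood, two-sided, Benjamini-Hochberg over the 10153 genes whose mean RPKM was 1 or more, threshold 0.05) compared siCDCA3 with siNC. The common dispersion was 0.126. Each standard error was obtained by dividing the size of the log2 fold change by the root of its F statistic. The code was tested on simulated counts with larger changes and less variation than these libraries show, so its power here is unknown. DESeq2 1.42.0, limma 3.58.1 and other scalings, filters, pseudocounts and transcripts were alternatives. Differences per library are in log2(RPKM + 1), with a pseudocount of 1 and no test.

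Members were named in full when they had the 4 highest mean RPKM values of a role (all for polymerase I), the largest or smallest siCDCA3-2 minus siCDCA3-1 difference of a role, or were higher in both siCDCA3 libraries. Others were named where they share a complex or pass a stated size. Outside the 40, the rule took the 2 largest and the smallest such difference per list, with CDCA3, MYBL2 and MYC. The members and lists were chosen with earlier results of these data known.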

Additional observations from a re-analysis of the deposited data

How the results depend on the processing

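No paired analysis was possible because siNC has a single library without a number in its label. No member was called under any of the 8 other fits, and no subgroup median changed sign under any of the 8 other settings for the differences. Of these settings 7 were planned and 1, centring on all genes tested, was added after the data were seen. At a mean RPKM of at least 5 only 34 members remained, without POLR1A and UTP20, and the polymerase I median rested on 2 genes. The members' median moved between 0.65 and 0.75 in siCDCA3-2 against siNC, and between -0.24 and -0.12 in siCDCA3-1 against siNC. The 18 members with a siCDCA3-2 minus siCDCA3-1 difference of at least 1 on the log2 scale became 11 with TMM-scaled counts and 20 with a pseudocount of 0.1. The share of all genes tested with such a difference was 4.90%, and it became 3.25% and 8.89% in those settings. Among all genes, edgeR called 0 higher and 3 lower genes. Higher genes numbered 4 without a filter and 2 in DESeq2. Lower genes numbered 18 without a filter, 8 in DESeq2, 1 with upper quartile scaling, and 0 without scaling factors, at a mean RPKM of at least 5 and in limma (74 and 121 genes with an unadjusted p under 0.05 in the last 2, 120 without scaling factors). The number of genes tested was 18761 without a filter and 5499 at the higher minimum. The causes of these differences in calls were not tested. Leaving out either siCDCA3 library leaves no residual degrees of freedom, so only values can be given. The log2 fold change of NPM1 was then -0.232 without siCDCA3-2 and 0.638 without siCDCA3-1, that of MRTO4 was -0.083 and 1.40, that of UTP20 0.58 and 1.57, and that of POLR1A 0.805 and 1.29. For NPM1 and MRTO4 the direction thus rests on siCDCA3-2. The lowest count of a member in a library was 560. With a single siNC library, the spread between control libraries is unknown.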
